A study of Rattus norvegicus with 6 samples.

Results

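The collagen chain genes are the genes whose symbol is Col, a number for the collagen type, a and a number for the chain, and they were chosen by that name alone. Among the 22536 genes of the deposited table, 43 had such a symbol, and 32 of them passed the filter on low values (1 FPKM or more in 3 or more of the 6 libraries) and were tested. FPKM is the number of fragments scaled to transcript length and to the size of the library, so that levels of genes of different length can be set side by side. The samples were 3 libraries of control male rats and 3 of male rats with painful diabetic neuropathy (PDN), the pain that can accompany nerve damage in diabetes. The labels give the tissue of each as sensory neuron, the title of the series names the dorsal root ganglion, and no library is labelled with a drug or bile acid treatment. The sources used here give neither strain, age nor the way diabetes was induced, and do not say whether tissue of several rats was pooled.

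Collagens are the main structural proteins of the extracellular matrix. 3 chains, alike or different, wind into a helix in the endoplasmic reticulum, are secreted, and assemble outside the cell into fibrils, networks or filaments. In a peripheral ganglion, fibrillar collagens fill the connective tissue between and around nerve fibres and cell bodies, whereas type IV collagen forms the basement membrane around Schwann cells, satellite glia and capillaries. Fibroblasts, Schwann cells and cells of the vessel wall are known sources of these chains.

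The values of a library rest on about 51855000 to 62785000 fragments, if a constant that links the deposited tables is the fragment number, which was not checked. Neuronal and glial genes were both abundant. The sensory neuron genes Prph, a neuronal intermediate filament protein, and Scn10a, a sodium channel of pain fibres, were at 742 to 830 and 102 to 132 FPKM. The summed level of 6 satellite glia markers was 1622 to 1895 FPKM, of which Apoe alone was 1404 to 1628. Fabp7, another of the 6, was at 22.6 to 49.7 FPKM, and the fibroblast marker Dcn was at 115 to 173 FPKM. The label sensory neuron therefore names a tissue that held glial and connective tissue RNA too, and in such tissue fewer cells of a type and less RNA per cell cannot be told apart. Control 2 and PDN 3 stood apart by RNA of skeletal muscle: the summed FPKM of 6 muscle genes was 475 and 152 there, 29.2 in PDN 1, and 1.78 to 2.02 in the other 3 libraries. The differences of single chains without these 2 libraries are given in 1 paragraph after those over all libraries.

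Over all collagen chains, PDN libraries were lower on average than controls, but no single chain passed the adjusted threshold. The summed collagen level was 502, 505 and 458 FPKM in controls 1 to 3 and 410, 375 and 497 FPKM in PDN 1 to 3, which is 488 ± 25.8 against 427 ± 62.7 (SD, n = 3 each). PDN 1 and PDN 2 lay below every control, while PDN 3 lay within the control range. Collagen chains made up 0.136% to 0.144% of the FPKM of a control library, and 0.121%, 0.106% and 0.144% in PDN 1, 2 and 3. Of the 32 tested chains, 27 were estimated lower and 5 higher in PDN, and their median difference was -0.16 on the log2(FPKM + 1) scale. Over all 13282 tested genes the median difference was -0.02 and 56.6% had a lower estimate. Under median-of-ratios scaling 48.5% of all genes were estimated lower, under upper-quartile scaling 48.2%, and both scalings gave 27 lower chains.

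In limma with Benjamini-Hochberg adjustment over all tested genes, 0 of 32 chains passed an adjusted p of 0.05, against 0.0% of the 13282 genes. The lowest adjusted p of a chain was 0.707. An unadjusted p under 0.05 was found for 10 chains, 9 lower in PDN and 1 higher (Col6a5). Among all tested genes, 2.89% were lower and 1.83% higher at that level, and the lower share was 2.31% with median-of-ratios scaling, under which 8 chains were lower. The groups did not overlap in 9 chains, each with PDN lower, against 6.24% of all tested genes with PDN lower and 3.69% with PDN higher. The number of chains at an unadjusted p under 0.05 was 6 without control 1, 6 without control 2, 5 without PDN 2 and 13 without PDN 3. All of the chains in these 4 fits were lower in PDN. In the same fits 3.40%, 1.80%, 2.85% and 3.93% of all tested genes were lower at that level. Without control 3 there were 10 chains, 9 lower and 1 higher, and without PDN 1 there were 7, 6 lower and 1 higher. The higher chain was Col6a5 each time. There 2.36% and 1.91% of all tested genes were lower at that level. With the muscle-rich control 2 and PDN 3 both left out, 10 chains were at that level, all lower in PDN, against 2.54% of all tested genes. The lowest adjusted p of a chain in limma was then 0.245, for Col3a1.

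Without control 2 and PDN 3, the chains at an unadjusted p under 0.05 were not the same 10 as over all libraries. Col1a1 and Col14a1 were added, with log2 differences of -0.41 and -0.37 against -0.21 and -0.26 over all libraries. Col4a5 and Col6a5 were lost, although their estimates, -0.39 and 0.41, lay near the values of -0.40 and 0.48 over all libraries. Larger differences than over all libraries were also estimated for Col15a1 (-0.75 against -0.54), Col3a1 (-0.64 against -0.49) and Col12a1 (-0.51 against -0.33). The same held for Col1a2 (-0.21 against -0.07), Col5a3 (-0.26 against -0.15), Col8a1 (-0.28 against -0.17) and Col16a1 (-0.18 against -0.08). It also held for the higher estimates of Col23a1 (0.46 against 0.18) and Col25a1 (0.18 against 0.04). Col6a1 moved the other way, from -0.20 to -0.10, and Col11a1 from 0.18 to 0.005. The summed collagen levels of the remaining libraries were 502 and 458 FPKM in controls and 410 and 375 FPKM in PDN. That these do not overlap follows from leaving out PDN 3, the only PDN library within the control range, and shows nothing further.

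**Figure D1:**
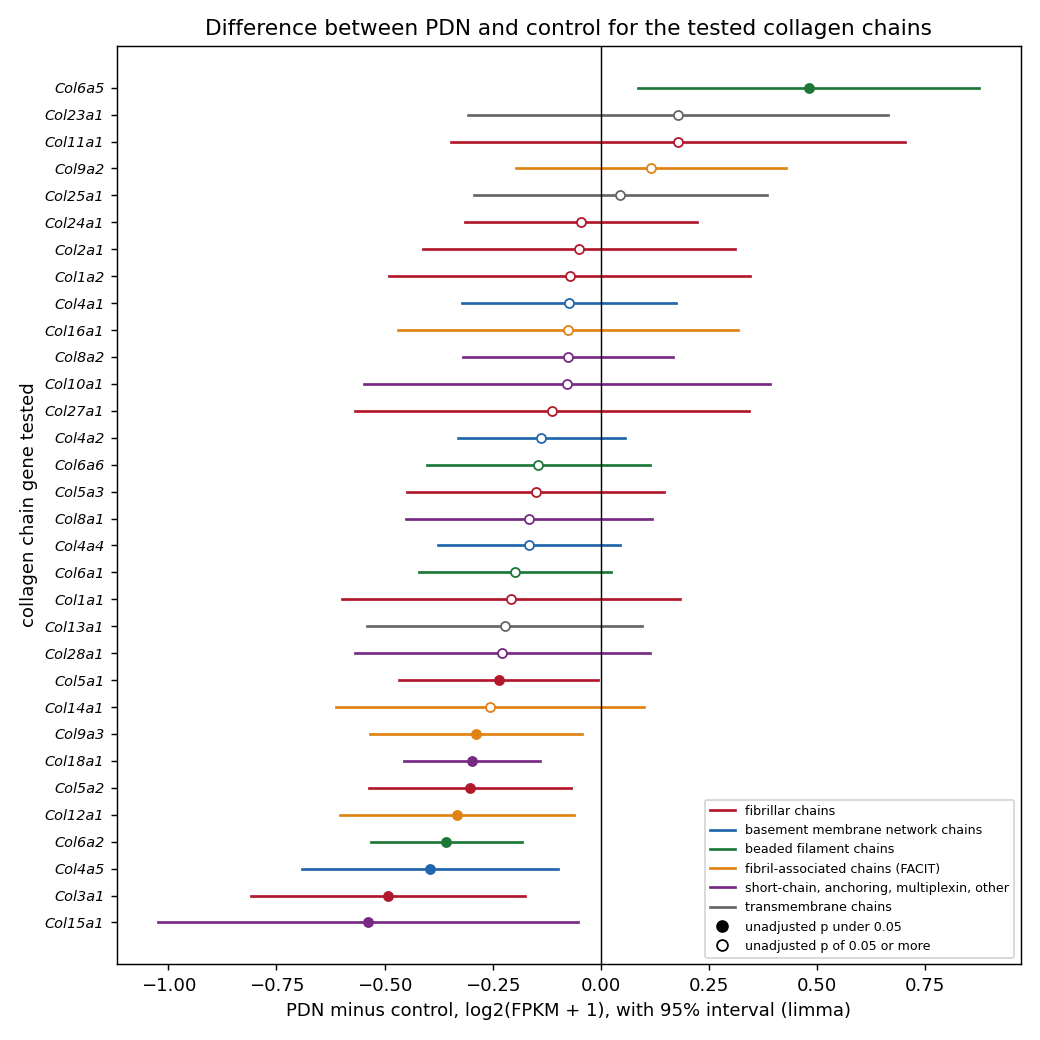
Difference between PDN and control for each of the 32 tested collagen chain genes, on the log2(FPKM + 1) scale with its 95% interval from limma; colours give the structural class and filled points an unadjusted p under 0.05. Of the 32 points, 27 lie left of 0, and Col6a5 is the only filled point to the right.

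The fibrillar chains, which form the banded fibrils of connective tissue, were the most abundant class. They took 51.7% to 60.4% of the summed collagen FPKM of a library. Col1a1, the main chain of type I collagen, had the highest mean of all collagen genes and was at 73.8, 70.6 and 69.4 FPKM in controls 1 to 3 and at 60.2, 48.0 and 80.5 FPKM in PDN 1 to 3. Col1a2, its partner chain, was at 64.4, 70.1 and 60.8 FPKM in controls and at 62.9, 46.6 and 80.3 FPKM in PDN. For both genes PDN 2 was the lowest and PDN 3 the highest of the 6 libraries, so the control values lay inside the range of the PDN values. The log2 difference was -0.21 ± 0.17 (SE) for Col1a1 and -0.07 ± 0.18 for Col1a2, with 95% intervals of -0.60 to 0.18 and -0.49 to 0.34 and adjusted p-values of 0.999 in limma. Both estimates rested on PDN 2 and PDN 3. Col1a1 was at -0.03 without PDN 2 and at -0.40 without PDN 3, and Col1a2 turned to 0.13 without PDN 2 and was at -0.26 without PDN 3.

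Col3a1, the chain of type III collagen, which makes thin fibrils in soft tissue and vessel walls, was at 58.6, 60.8 and 58.3 FPKM in controls and at 38.1, 36.1 and 52.9 FPKM in PDN. Every PDN library lay below every control, with PDN 3 the nearest to them. PDN was at 71.6% of the control mean, 42.4 ± 9.16 against 59.2 ± 1.35 FPKM (SD, n = 3 each). The log2 difference of Col3a1 was -0.49 ± 0.14 (SE), its 95% interval was -0.81 to -0.18 and its adjusted p in limma was 0.923. Without PDN 3 the difference was -0.66, with an adjusted p of 0.0687 in limma, the lowest of any chain when a single library was left out.

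Type V collagen sits inside type I fibrils and limits their width. Its Col5a3 chain, known from Schwann cells, was the most abundant of the 3, at 45.5, 44.5 and 38.9 FPKM in controls and at 35.6, 34.2 and 46.9 FPKM in PDN, where PDN 3 was above every control. Col5a1 was at 14.9, 16.2 and 14.2 FPKM in controls and at 12.3, 11.4 and 14.4 FPKM in PDN, with PDN 3 inside the control range. Col5a2 was at 13.4, 13.3 and 12.8 FPKM in controls and at 9.46, 9.90 and 12.3 FPKM in PDN, with no overlap. Col5a1 and Col5a2 had log2 differences of -0.24 ± 0.10 and -0.30 ± 0.10 (SE), and both had an adjusted p of 0.999 in limma. In the deposited loci, Col5a2 lies 33293 bases from Col3a1 on chromosome 9, and both genes had their 3 highest values in the 3 controls.

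The other fibrillar chains were low. Col11a1, a chain of cartilage fibrils that also occurs in soft tissue, was at 4.43, 2.47 and 2.53 FPKM in controls and at 4.47, 2.53 and 3.99 FPKM in PDN. Its high libraries were control 1, PDN 1 and PDN 3, so the groups overlapped throughout. Col2a1, the main cartilage collagen, ranged from 2.75 to 4.51 FPKM, Col24a1 from 1.45 to 1.97 and Col27a1 from 0.910 to 2.04 FPKM over the 6 libraries. For Col2a1 and Col27a1 the lowest library was PDN 2 and the highest PDN 3, the order also seen for Col1a1, Col1a2 and Col5a3. Col11a2 was below the filter, at 0.962, 1.10 and 1.36 FPKM in controls and at 0.825, 0.218 and 0.616 FPKM in PDN, and has no test. The cartilage, tendon and bone markers Acan did not exceed 0.0775 FPKM, Tnmd was listed at 0 in 5 libraries and at 0.0986 in PDN 1, and Comp, which is also made by other connective tissue, was at 2.74 to 4.31 FPKM.

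**Figure D2:**
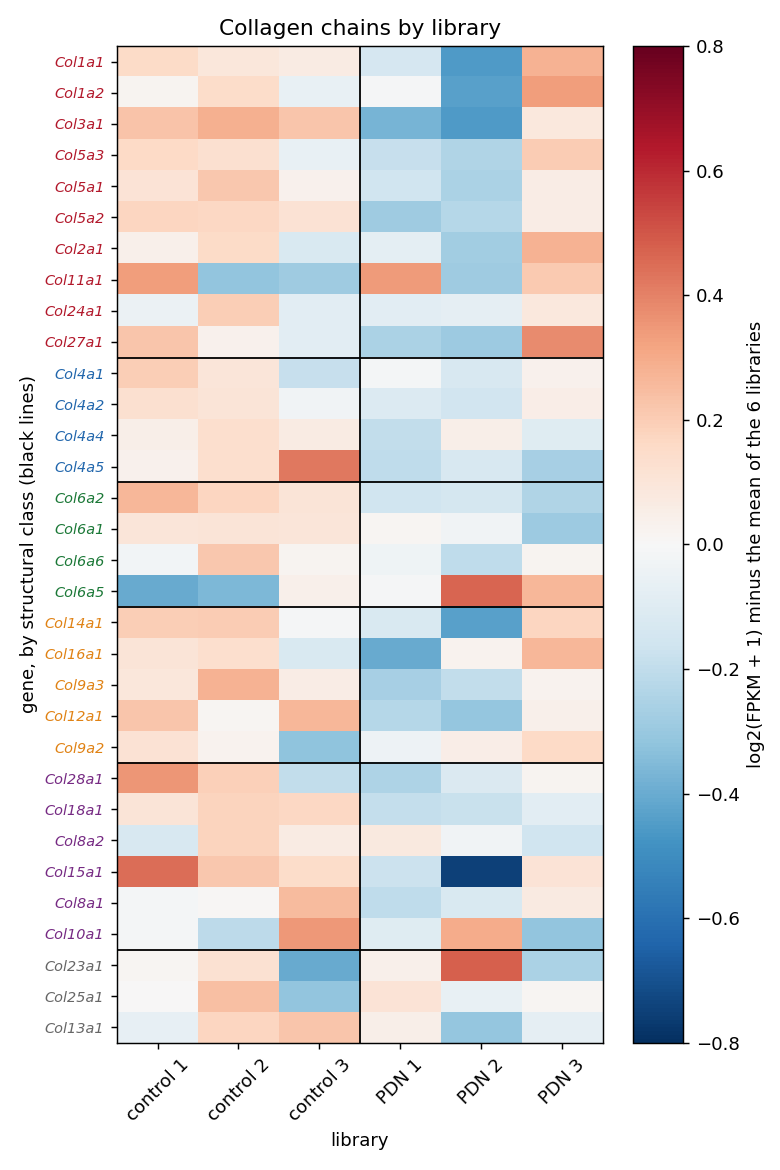
Each tested collagen chain gene (vertical) in each of the 6 libraries (horizontal), as log2(FPKM + 1) minus the mean of the 6 libraries, grouped by structural class. PDN 2 is the lowest library for 13 of the 32 chains, while Col6a5 and Col23a1 are highest there.

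The basement membrane chains of type IV collagen form the sheet-like network under glia and endothelium, in trimers that pair specific chains. Col4a1 was at 41.0, 38.1 and 31.3 FPKM in controls and at 35.2, 32.5 and 36.5 FPKM in PDN, and control 3 was its lowest library. Col4a2, its partner, was at 16.9, 16.5 and 15.05 FPKM in controls and at 14.1, 13.7 and 15.9 FPKM in PDN, and PDN 3 lay inside the control range. Their log2 differences were -0.07 ± 0.11 and -0.14 ± 0.08 (SE), each with an adjusted p of 0.999 in limma. As the file gives them, the loci of the pair on chromosome 16 (83522162 to 83632153 for Col4a1 and 83386355 to 83632133 for Col4a2) overlap by 109972 bases, and the counting is not stated to use strand, so the division of fragments between these genes is uncertain. No build is named for these loci.

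Col4a1 and Col4a2 are a textbook case of genes that start back to back from a shared promoter. In RefSeq's table for build GRCr8 their starts lie on opposite strands with 76 bases between them, and the interval is printed here because both chains of the trimer are read from it. Capitals mark each CCGCCC, which is GGGCGG, the letters of the GC box, on the other strand. The interval is chr16:84885521-84885596, written on the plus strand, that of Col4a1.
Col4a2 to Col4a1 interval: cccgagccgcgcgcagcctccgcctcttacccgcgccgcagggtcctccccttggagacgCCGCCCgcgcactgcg
The same table held a promoter for 34 of the 43 collagen genes. In the 250 bases before the start, GGGCGG on either strand was found in 19 of the 34 (55.9%), against 30.5% of the 33469 promoters in the table. CCAAT on either strand was found in 11 of the 34 (32.4%, against 34.0% of all) and TATAAA on the strand of the gene in 4 (11.8%, against 8.06%). The median share of G and C was 59.0% in the collagen promoters and 51.2% over the table. Such matches describe the letters and show no binding.

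The remaining type IV chains were scarcer. Col4a4, found with Col4a3 and Col4a5 in specialised basement membranes, was at 5.38, 5.78 and 5.44 FPKM in controls and at 4.37, 5.36 and 4.77 FPKM in PDN, without overlap. Its neighbour Col4a3, 373 bases away in the deposited loci, was below the filter at 0.719, 0.833 and 0.933 FPKM in controls and 0.572, 0.684 and 0.698 FPKM in PDN, also without overlap. Col4a5 on the X chromosome was at 1.48, 1.66 and 2.24 FPKM in controls and at 1.10, 1.21 and 1.01 FPKM in PDN. Its PDN mean was 61.9% of the control mean, the smallest share among tested chains. Its log2 difference was -0.40 ± 0.13 (SE), which the added 1 makes smaller for such a low gene, with an adjusted p of 0.999 in limma. Col4a6, its partner in smooth muscle basement membranes, did not exceed 0.316 FPKM.

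The beaded filament chains of type VI collagen link basement membranes to the matrix around them. Col6a2 had the lowest adjusted p of all chains in limma (0.707) and was at 12.5, 11.7 and 11.1 FPKM in controls and at 9.09, 9.24 and 8.54 FPKM in PDN. The groups did not overlap, and PDN was at 76.1% of the control mean, a log2 difference of -0.36 ± 0.07 (SE) with a 95% interval of -0.53 to -0.18. Col6a1, which lies 97865 bases from Col6a2 on chromosome 20, was at 9.80, 9.86 and 9.83 FPKM in controls and at 9.23, 8.93 and 7.28 FPKM in PDN. These groups did not overlap either, with a log2 difference of -0.20 ± 0.09 (SE) and an adjusted p of 0.999 in limma, and the difference was -0.10 without PDN 3. Col6a3, the chain that completes the common type VI trimer, was not analysed here.

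Col6a4, Col6a5 and Col6a6 are the less common chains of type VI collagen. Col6a5 was at 1.20, 1.27 and 2.01 FPKM in controls and at 1.90, 3.02 and 2.505 FPKM in PDN, with control 3 above PDN 1. Its log2 difference was 0.48 ± 0.17 (SE), the 95% interval ran from 0.09 to 0.88, and limma gave an adjusted p of 0.999. Col6a5 was above an unadjusted p of 0.05 without control 1, control 2, PDN 2 or PDN 3. Col6a6, 79059 bases away on chromosome 8, was at 1.68 to 2.57 FPKM in all libraries, lowest in PDN 2 where Col6a5 was highest. Col6a4 did not exceed 0.326 FPKM.

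Fibril-associated chains, which coat fibrils and connect them, had 4 of 5 tested members with a lower estimate. Col14a1, a coat protein of type I fibrils, was at 17.3, 17.4 and 14.8 FPKM in controls and at 13.7, 10.8 and 17.0 FPKM in PDN, and PDN 3 was within the control range. Col12a1, a related chain of fibril surfaces, was at 10.4, 8.87 and 10.7 FPKM in controls and at 7.32, 6.88 and 9.04 FPKM in PDN. PDN 3 exceeded control 2 for Col12a1, and the other PDN libraries were below all controls. Its log2 difference was -0.33 ± 0.12 (SE), with an adjusted p of 0.999 in limma.

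Col16a1, another chain of this class, was at 12.9, 13.2 and 10.9 FPKM in controls and at 8.78, 12.2 and 14.6 FPKM in PDN. PDN held both the lowest and the highest value, and the estimate of -0.08 turned to 0.11 without PDN 1. The type IX chains did not share a pattern. Col9a3 was at 10.1, 11.7 and 9.86 FPKM in controls and at 7.65, 8.11 and 9.64 FPKM in PDN, without overlap (log2 difference -0.29 ± 0.10, SE; adjusted p of 0.999 in limma). Col9a2 was at 3.00, 2.77 and 1.96 FPKM in controls and at 2.60, 2.84 and 3.12 FPKM in PDN, and its highest value was in PDN 3. Col9a1 was below the filter, at 0.0383 to 0.503 FPKM, so that the 3 chains of the type IX trimer differed widely in level.

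Among the remaining secreted chains, all 6 tested had a lower estimate in PDN. Col18a1, a basement membrane collagen whose end fragment is the vessel growth inhibitor endostatin, was at 13.4, 14.2 and 14.04 FPKM in controls and at 10.8, 10.9 and 11.7 FPKM in PDN. The groups did not overlap and their spread was small, at 13.9 ± 0.406 against 11.1 ± 0.491 FPKM (SD, n = 3 each). The log2 difference was -0.30 ± 0.07 (SE), the 95% interval ran from -0.46 to -0.14, and limma gave an adjusted p of 0.744. Col15a1, the closest relative of Col18a1 and a chain of basement membranes of muscle, nerve and vessels, was at 11.4, 9.59 and 9.13 FPKM in controls and at 7.12, 4.45 and 8.85 FPKM in PDN. Its log2 difference was -0.54 ± 0.21 (SE), with an adjusted p of 0.999 in limma, and the value was -0.30 without PDN 2.

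The promoters of Col18a1 and of Col1a2 are printed as examples, both 250 bases before the RefSeq start in build GRCr8. Col18a1 did not overlap between groups, and the abundant Col1a2 did. Capitals mark the same 3 motifs, on the strands searched above, and no marked stretches overlap. Col18a1 is chr20:11473395-11473644 and Col1a2 is chr4:33518307-33518556, both on the plus strand.
Col18a1: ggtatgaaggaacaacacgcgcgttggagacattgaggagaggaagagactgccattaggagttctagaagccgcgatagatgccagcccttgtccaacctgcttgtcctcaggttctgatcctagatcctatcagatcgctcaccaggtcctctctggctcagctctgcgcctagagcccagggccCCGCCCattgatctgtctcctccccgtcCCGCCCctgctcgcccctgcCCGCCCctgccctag
Col1a2: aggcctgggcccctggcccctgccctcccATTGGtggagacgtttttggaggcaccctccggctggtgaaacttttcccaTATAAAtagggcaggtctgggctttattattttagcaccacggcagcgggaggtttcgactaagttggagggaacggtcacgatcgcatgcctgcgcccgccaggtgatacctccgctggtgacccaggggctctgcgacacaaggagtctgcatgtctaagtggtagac
In these windows Col18a1 held 3 GC box matches, which begin 63, 35 and 15 bases before the start, and neither CCAAT nor TATAAA. Col1a2 held an ATTGG that begins 221 bases before the start and a TATAAA at 170, and no GC box match. Whether transcription begins at the RefSeq start in this tissue was not tested. These windows do not stand for other chains. Among chains without overlap, Col5a2, Col15a1, Col4a4 and Col6a1 held no GC box match and Col4a5 held 1. Among chains with overlap, Col8a1 and Col8a2 held 4 each, Col5a3 held 3 and Col28a1 held none. For Col3a1, Col6a2 and Col9a3, also without overlap, no promoter was at hand.

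Col28a1, a chain known from peripheral nerve around non-myelinating and terminal Schwann cells, was at 19.3, 17.2 and 12.9 FPKM in controls and at 12.4, 13.7 and 15.2 FPKM in PDN. Control 3 lay among the PDN values, and the log2 difference was -0.23 ± 0.15 (SE; adjusted p of 0.999 in limma). That difference was -0.11 without control 1 and -0.39 without control 3. Col8a2, of the network under corneal and vascular endothelium, was at 9.64, 12.1 and 11.2 FPKM in controls and at 11.3, 10.4 and 9.38 FPKM in PDN. Its partner Col8a1 was at 1.87, 1.92 and 2.45 FPKM in controls and at 1.52, 1.67 and 2.05 FPKM in PDN, and both chains overlapped between the groups. Col10a1, the chain of growing cartilage, was at 0.866 to 1.96 FPKM, and 44731 bases of its locus overlap that of Nt5dc1, so its level is uncertain without the strand.

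The transmembrane chains span the cell membrane and can be shed from it. Col23a1 was at 10.3, 11.2 and 7.48 FPKM in controls and at 10.6, 14.7 and 8.40 FPKM in PDN, highest in PDN 2, the library lowest for most fibrillar chains. Col25a1, which neurons express, was at 3.85, 4.70 and 2.89 FPKM in controls and at 4.22, 3.63 and 3.88 FPKM in PDN, all inside the control range. Col13a1, of neuromuscular and other cell contacts, was at 1.11, 1.48 and 1.57 FPKM in controls and at 1.27, 0.777 and 1.10 FPKM in PDN. Their log2 differences were 0.18 ± 0.21, 0.04 ± 0.14 and -0.22 ± 0.14 (SE), with adjusted p-values of 0.999 in limma.

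The 11 chains below the filter have values and no test. Besides Col11a2, Col4a3, Col4a6, Col6a4 and Col9a1, Col19a1 was at 0.808 to 0.982 FPKM, Col22a1, a chain of muscle and tendon junctions, at 0.301 to 0.445, Col26a1 at 0.123 to 0.249 and Col20a1 at 0.114 to 0.243. Col7a1, the anchoring fibril chain of skin, did not exceed 0.234 FPKM. Col17a1, of the junction between skin epithelium and its basement membrane, was listed at 0 in 2 controls and did not exceed 0.0182 FPKM.

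**Figure D3:**
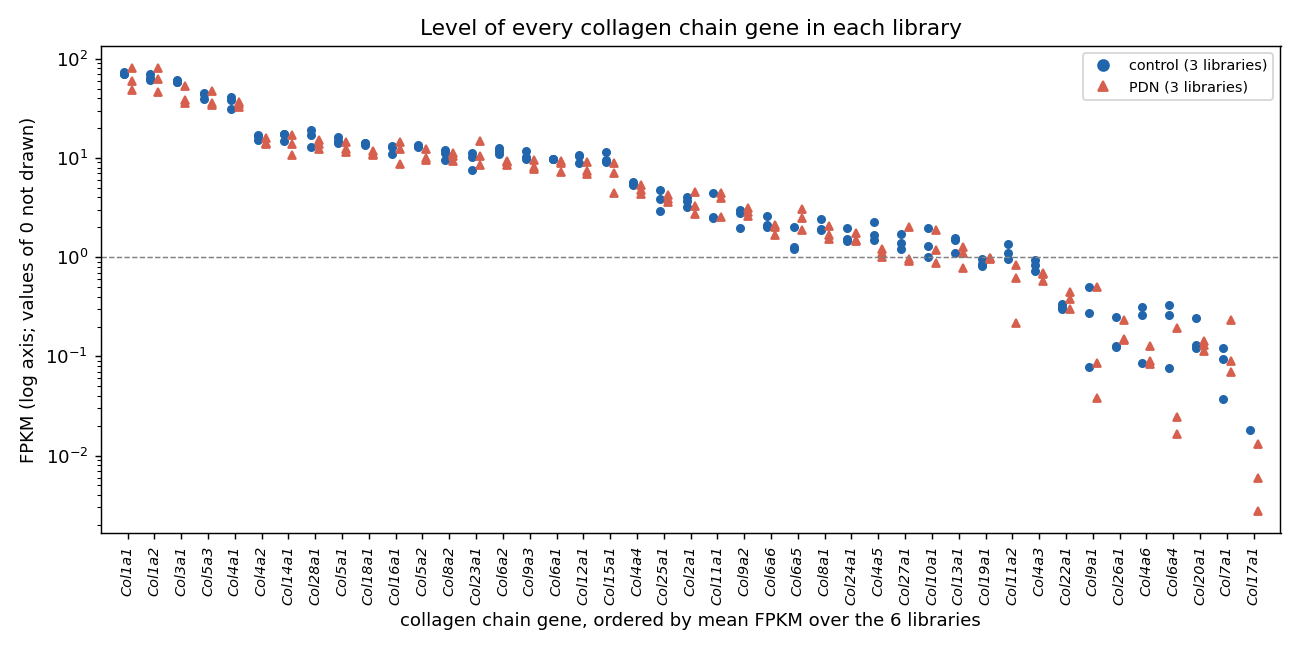
FPKM (log axis) of all 43 collagen chain genes in the 3 control (circles) and 3 PDN libraries (triangles), ordered by mean; the dashed line is the filter value of 1 FPKM. Levels run from Col1a1, at 48.0 to 80.5 FPKM, to Col17a1, at no more than 0.0182.

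The spread within each group was compared over the chains, as a description. In 20 of the 32 tested chains (62.5%) the SD over PDN exceeded that over controls, against 49.4% of all tested genes. PDN 2 was the lowest library for 13 chains and PDN 1 for 7, while PDN 3 was the highest for 7 and control 2 for 11. Over all tested genes PDN 2 was lowest in 14.6%, PDN 1 lowest in 27.8%, PDN 3 highest in 12.6% and control 2 highest in 23.8%. For PDN 3 the classes parted. Its mean centred log2 level was 0.20 for fibrillar chains, above the controls (-0.02 to 0.14), and 0.13 for fibril-associated chains, inside the control range (-0.03 to 0.15). It was below every control for basement membrane chains (-0.07 against 0.07 to 0.12), for beaded filament chains (-0.06 against -0.02 to 0.07) and for the other secreted chains (-0.06 against 0.09 to 0.13). For transmembrane chains it was -0.10, inside the control range of -0.17 to 0.18.

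Chains that assemble together were compared as ratios within each library. Col1a1 to Col1a2 was 1.15, 1.01 and 1.14 in controls and 0.958, 1.03 and 1.00 in PDN. Control 2 lay among the PDN values, and the exact permutation test over libraries (two-sided) gave p = 0.2. Col6a1 to Col6a2 was 0.838 ± 0.0524 in controls, against 0.945 ± 0.0836 with PDN (SD, n = 3 each; exact permutation p = 0.2), with PDN 3 inside the control range. Col4a1 to Col4a2 was 2.27 ± 0.179 against 2.38 ± 0.101 and Col5a1 to Col5a2 was 1.15 ± 0.0612 against 1.21 ± 0.0770 (SD, n = 3 each), with exact permutation p-values of 0.5 and 0.4. Adjusted over the 4 ratios, the p-values were 0.4 to 0.5, and 3 libraries against 3 cannot give less than 0.1. These tests do not show that the ratios are equal.

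**Figure D4:**
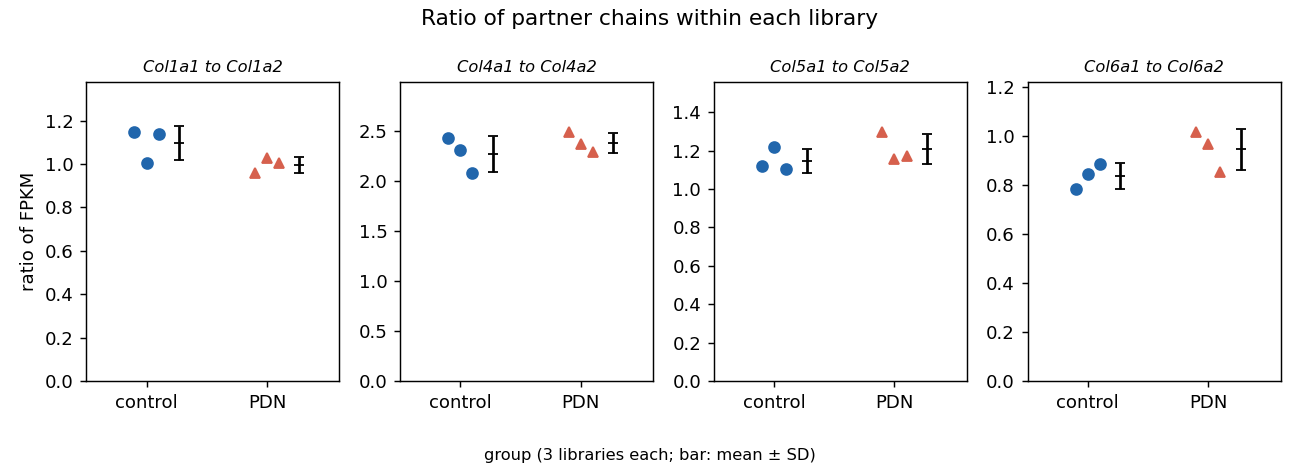
Ratio of the FPKM of partner chains within each library, for 4 pairs, with the mean ± SD of the 3 libraries of each group beside the points. The groups overlap in all 4 panels.

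Genes that act on collagen are given by 5 lists. For comparison, 56.6% of all tested genes had a lower estimate in PDN. Enzymes and chaperones that modify and fold collagen had 10 of 18 tested genes with a lower estimate and a median log2 difference of -0.02, the same as over all genes. P3h2, a prolyl 3-hydroxylase of basement membrane collagen, was at 3.82 ± 0.494 FPKM in PDN against 2.93 ± 0.438, and P4ha1, a subunit of prolyl 4-hydroxylase, at 20.5 ± 1.17 against 23.3 ± 1.76 (SD, n = 3 each). Serpinh1, the collagen chaperone HSP47, was at 49.3 to 56.2 FPKM in controls and at 49.6, 49.7 and 65.9 in PDN 1 to 3; it was chosen after its values were seen. Genes for procollagen cleavage and cross-linking had 9 of 9 tested members with a lower estimate and a median of -0.19. Among them the cross-linking oxidase gene Loxl1 was at 0.917 ± 0.0770 FPKM against 1.31 ± 0.145, and Tll1, a relative of the procollagen proteinase BMP1, at 5.69 ± 0.559 against 6.60 ± 0.182 (SD, n = 3 each).

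Collagen breakdown genes and their inhibitors had 8 of 11 tested members with a lower estimate and a median of -0.12. The membrane collagenase gene Mmp14 had 31.3 ± 6.74 FPKM with PDN and 38.9 ± 4.55 without, and Mrc2, an uptake receptor for collagen fragments, 2.93 ± 0.189 and 3.40 ± 0.396 (SD, n = 3 each). Collagen receptor genes had 4 of 7 lower and a median of -0.05. Their smallest p-values were those of Ddr2, a kinase receptor for fibrillar collagen, at 4.77 ± 0.162 against 5.34 ± 0.392 FPKM, and Lair1, an inhibitory receptor of immune cells, at 1.33 ± 0.259 against 1.04 ± 0.370 (SD, n = 3 each). Fibril partners and TGF-beta genes had 14 of 15 with a lower estimate and a median of -0.10. The growth factor gene Tgfb3 was at 5.61 ± 0.544 FPKM against 7.63 ± 0.764, and the fibril-spacing proteoglycan gene Lum at 21.8 ± 3.48 against 29.3 ± 0.945 (SD, n = 3 each). The exception was Ccn2, a TGF-beta target chosen after its values were seen, at 2.92 ± 0.433 against 2.01 ± 0.292 FPKM (SD, n = 3 each). In these 5 lists 0 genes passed an adjusted p of 0.05 in limma, against 0.0% of all tested genes. An unadjusted p under 0.05 was found for 3 lower and 1 higher fibril partners, 1 lower cross-linking gene and 1 higher modification gene. Among all tested genes 2.89% were lower and 1.83% higher at that level.

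Marker genes of several cell types, known sources of collagen or not, are given beside the chains. The part of these cells in the difference was not tested. Fibroblast markers had 5 of 6 tested genes with a lower estimate and a median log2 difference of -0.18. Their summed level was 195 to 238 FPKM in controls and 167 to 214 in PDN, lowest in PDN 3, where Col1a1 and Col1a2 were highest. The fibroblast list shares Dcn and Lum with the fibril partners. Dcn, the most abundant fibroblast marker, held most of this sum. It was at 139, 173 and 153 FPKM in controls and at 162, 162 and 115 FPKM in PDN. Pdgfra and Fbln1 were also lowest in PDN 3, and Mfap5 was lowest in control 1. Lum was at 28.2, 29.7 and 29.9 FPKM in controls and at 21.7, 18.3 and 25.3 FPKM in PDN. Lum and Clec3b did not overlap between the groups. Both were lowest in PDN 2, and PDN 3 was their highest PDN library. Pericyte and smooth muscle markers had 6 of 7 lower, with a summed level of 64.7 to 78.0 FPKM in controls and 43.7 to 68.3 in PDN, lowest in PDN 1. Endothelial markers had 4 of 5 lower, with sums of 40.1 to 50.6 and 41.0 to 48.2 FPKM. The exception, Cldn5, held a large part of these sums, at 19.5 to 25.5 FPKM in controls and 25.7 to 28.3 in PDN. Schwann cell markers had 5 of 7 lower. Satellite glia markers had 4 of 6 lower, with sums, mostly of Apoe, of 1622 to 1895 and 1673 to 1811 FPKM. Sensory neuron markers had 5 of 9 lower, with sums of 4601 to 5214 and 4416 to 4965 FPKM. Macrophage markers had 5 of 5 tested genes lower, with sums of 23.5 to 35.2 and 19.3 to 24.8 FPKM. No adipocyte marker was tested, and their sums were 0.430 to 1.28 and 0.368 to 0.602 FPKM. Skeletal muscle markers had 2 of 5 lower, and cartilage, tendon and bone markers 0 of 2. The median log2 difference was -0.36 for macrophage, -0.28 for endothelial, -0.21 for pericyte and smooth muscle and -0.16 for satellite glia markers. It was -0.03 for Schwann cell, -0.02 for sensory neuron, 0.19 for skeletal muscle and 0.13 for cartilage, tendon and bone markers. Of these markers 0 passed an adjusted p of 0.05 in limma. An unadjusted p under 0.05 was found for 3 macrophage, 2 fibroblast, 2 pericyte, 2 endothelial, 2 satellite glia and 1 Schwann cell markers with lower estimates. It was also found for 1 endothelial marker with a higher one. Over all tested genes 56.6% had a lower estimate, and 2.89% were lower and 1.83% higher at that level.

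**Figure D5:**
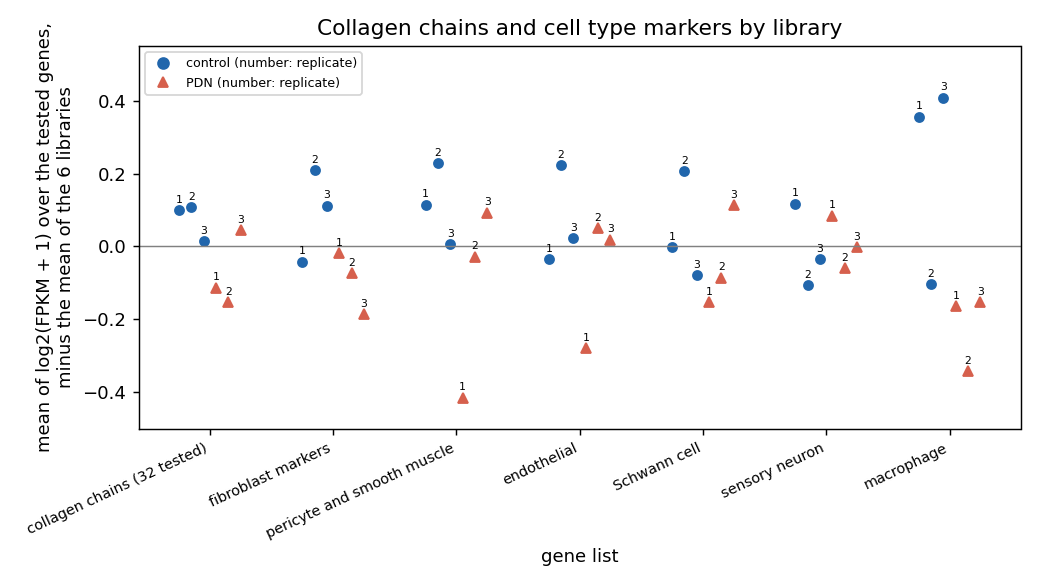
Mean of log2(FPKM + 1) over the tested genes of each list, minus the mean of the 6 libraries, for collagen chains and 6 cell type marker lists; numbers beside the points are replicate numbers. Collagen chains are lowest in PDN 2 (-0.15), fibroblast markers in PDN 3 (-0.19), and pericyte and endothelial markers in PDN 1 (-0.41 and -0.28).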

How the data were processed

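RNA from 6 rat libraries was sequenced from strand-specific libraries of 1 µg total RNA, per the labels' protocols. The authors deposited FPKM per gene; for the aligner, quantifier, annotation and build: not given in the sources used here. A second table the authors deposited holds whole numbers and was treated as a score: among values above 1000, 54.5% to 54.9% equal FPKM times genomic span times 1 constant per library (relative tolerance 0.001). The fragments per library are those constants read as fragment numbers, which was not checked, and no counting error could be computed. Genes with 1 FPKM or more in 3 or more libraries were analysed as log2(FPKM + 1), a scale that understates changes of low genes, with limma 3.58.1 (R 4.3.3, intensity trend, group as the only term, two-sided). The method was tested on simulated data. The labels do not say whether replicates came from separate animals, so p-values measure the spread between these libraries, which may be technical.

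Chains printed by library are the 14 with the highest mean, those at an unadjusted p under 0.05, the 5 highest and 5 lowest estimates, and their partners, with a few others; of each pathway list the 2 smallest p-values are named, and of the marker lists genes chosen after their values were seen. Members and lists were chosen with earlier results of these data known. Col6a3, Col21a1, Crtap, Mia3, Pcolce2, Tnxb, Pecam1, Myh2, Myh4 and Ttn were not analysed here.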

Additional observations from a re-analysis of the deposited data

How the results depend on the processing

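No collagen chain passed the adjusted threshold under any of the 15 alternatives, and 25 to 28 of the 32 chains had a lower estimate in those that tested all 32. Their median log2 difference of -0.16 lay between -0.243 and -0.105 with single libraries left out. The count of chains at an unadjusted p under 0.05 ran from 5 to 13 over these fits, and Col3a1, Col4a5, Col6a2 and Col18a1 were among them each time. Col4a5 was not among them without control 2 and PDN 3, and was not tested under the stricter filter. With single libraries left out, the share of all tested genes lower at that level ran from 1.80% to 3.93%. Genes past the adjusted threshold numbered 0, 0 to 6 with single libraries left out, 1 without the filter, 1 with robust empirical Bayes, 2 in the whole-number table and 9 without control 2 and PDN 3. Changes of sign with a library left out were looked up only for the chains chosen by rule for printing by library. Other tested chains, such as Col2a1, Col10a1, Col24a1 and Col27a1, were not looked up. Estimates that changed sign ran from -0.228 to 0.108 for Col16a1, -0.259 to 0.127 for Col1a2 and -0.0175 to 0.351 for Col23a1. Those of Col25a1 (-0.101 to 0.176), Col4a1 (-0.183 to 0.00754) and Col9a2 (-0.0147 to 0.203) changed sign too. Without control 2 and PDN 3, Col8a2 turned to 0.0546; the cause of these changes was not tested. The labels do not say whether same-numbered libraries were paired. The correlations of their deviations from the group means were 0.171, -0.12 and -0.0865. Between libraries of different number they were -0.219 to 0.269, highest for the muscle-rich control 2 and PDN 3. So few libraries cannot show whether a pairing exists. With the replicate number as a block, 0 genes passed, 9 chains were at an unadjusted p under 0.05 and the median was -0.158. Of these chains 8 were lower, against 3.92% of all tested genes. The ratio of Col1a1 to Col1a2 then had an exact p of 0.5. The number of libraries, 3 a group, limits the precision to the printed intervals.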
